A study of Arabidopsis thaliana with 8 samples.

Results

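Leaves of Arabidopsis plants that overexpressed VaNAC26 were compared with leaves of wild type plants before any drought, to ask what the transgene changed in plants that still had water. VaNAC26 is a NAC transcription factor gene of the cold-hardy grapevine Vitis amurensis. The arrays were chosen by their titles: the 2 control arrays of VaNAC26-OE (OE 0d) against the 2 control arrays of the wild type (WT 0d), which makes 4 of the 8 arrays of the series. OE 0d and WT 0d plants were Arabidopsis thaliana of the Columbia ecotype, grown in soil under the same conditions and sampled before irrigation was stopped. OE plants carried VaNAC26 under the constitutive cauliflower mosaic virus promoter, and leaves from 3 homozygous lines were pooled for each OE sample, so that differences between lines cannot be seen. The controls were untransformed WT plants and not plants with an empty vector. The other 4 arrays of the series hold the same genotypes at 5 d after the last irrigation (OE 5d and WT 5d) and are used below only to look again at the genes found before drought. The labels give 2 replicates per group and do not say that they came from separate sets of plants, so the spread behind the p-values below may be partly or wholly technical.

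NAC proteins are plant transcription factors named for a conserved DNA-binding domain at their N-terminus. Many of them are induced by drought, cold or salt, and several change stress tolerance when they are overexpressed. Jasmonic acid (JA) is a lipid-derived hormone of wounding, defence and stress. Its signal is read by the receptor COI1, runs through a MYC branch and an ethylene-dependent ERF branch with the defensin gene PDF1.2 as its usual marker, and is ended by enzymes that oxidize, hydroxylate or conjugate the hormone. The transcript of VaNAC26 itself was not analysed here, so the arrays hold no direct check of the OE label.

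Each array was an Affymetrix ATH1 GeneChip, which reads a transcript through a set of short probes (a probe set). The authors deposited linear, normalized intensities, which were put on the log2 scale here. Over the 4 arrays they ran from 2.95 to 12298, and 47.7% lay under an intensity of 32, which was taken here as close to background. The background itself was not measured. The arrays of a pair were alike: the SD of the log2 difference between them was 0.239 for OE 0d and 0.26 for WT 0d, and 79 and 87 probe sets differed over 2-fold within these pairs. As a check of the leaf label, 10 named photosynthesis genes were bright on all 4 arrays, between 1076 and 9583.

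In OE 0d vs WT 0d, 179 of 22746 probe sets differed at an adjusted p under 0.05 (limma with Benjamini-Hochberg adjustment), which is 0.787% of those tested. In OE 0d, 98 of these (0.431%) showed a higher and 81 (0.356%) a lower intensity. The rises were the larger changes. Their median log2 fold change was 1.38 and 75 of them were over 2-fold, whereas the falls had a median of −1.02 and 43 of them were over 2-fold. The falls were also dimmer. The median intensity of the 98 rises was 160.7 in OE 0d, against 55.9 in WT 0d, and that of the 81 falls was 29.1 in OE 0d, against 68.0 in WT 0d. For 42 of the falls the OE 0d mean was under 32, and for 18 both means were. For 30 of the rises the WT 0d mean was under 32, and for 8 both means were. The size of these changes rests on intensities close to background. The arrays of the 2 genotypes did not overlap for any of the 179, nor for 47.2% of all probe sets, so that separation of the pairs is no support by itself for the genes below.

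**Figure D1:**
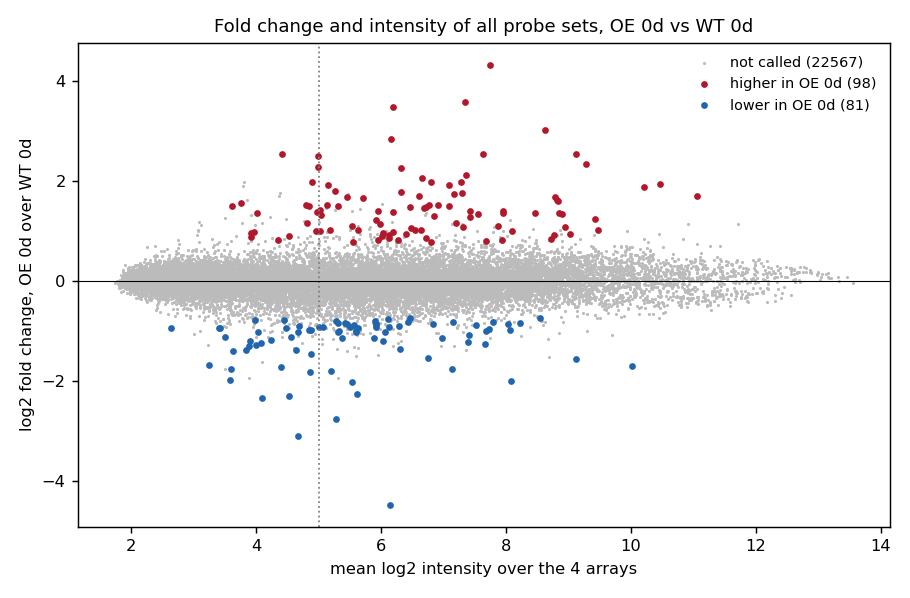
Log2 fold change of OE 0d over WT 0d (y axis) against the mean log2 intensity over the 4 arrays (x axis), 1 point per probe set, with the 98 higher in red and the 81 lower in blue. The dotted line marks an intensity of 32: most of the large rises lie to its right, and many of the falls lie close to it or to its left.

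The test rests on 2 arrays per group, and the number of calls moved with the arrays and with the estimate of the spread. On leaving out 1 array at a time, 23 to 67 probe sets were higher and 9 to 29 were lower, and 13 of the 98 rises and 5 of the 81 falls were called in each of these 4 fits. None of the 179 changed sign in them, which was fixed in advance because their arrays did not overlap between the genotypes. With all 8 arrays in 1 fit, the less alike OE 5d pair among them, 12 were higher and 6 were lower, and all 18 were among the 179. Without the moderation of limma, 0 passed the adjusted threshold, although 2492 had an unadjusted p under 0.05 and the smallest adjusted p was 0.137.

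The 98 rises include 45 probe sets with a single gene name, and the 81 falls include 38. The remaining 96 had no name or several. The sharpest rise of all was that of PDF1.2, which encodes an antifungal plant defensin. Its intensity was 999.8 and 904.1 in OE 0d, against 83.1 and 27.4 in WT 0d. The OE arrays were close to each other, the WT arrays were 3-fold apart, and the groups did not overlap. The log2 fold change was 4.32 ± 0.44 (SE, adjusted p = 0.0109), and it was 5.12 where WT 0d replicate 1 was left out and 3.52 where replicate 2 was. The call was lost without OE 0d replicate 1 (adjusted p = 0.0509) or replicate 2 (adjusted p = 0.0664), and under a trended robust estimate of the spread (adjusted p = 0.148). PDF1.2b, a close relative, had 1189 and 1051 in OE 0d, against 196.3 and 98.8 in WT 0d, a log2 fold change of 3.01 ± 0.29 (adjusted p = 0.00814). It was not called without OE 0d replicate 2 (adjusted p = 0.0618) or under the trended robust estimate (adjusted p = 0.0569). The probe set of PDF1.2b is of a kind whose probes can bind related transcripts, so it may read PDF1.2 as well.

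The defensins stood apart from the other named members of the ERF branch. ORA59, the AP2/ERF factor that activates PDF1.2, had 69.5 and 47.5 in OE 0d, against 51.6 and 46.9 in WT 0d. EIN3, the main ethylene-response activator, had 309.1 and 307.8 in OE 0d, against 320.3 and 279.2 in WT 0d. In both, the arrays of the 2 genotypes overlapped, and neither was called (adjusted p = 0.626 and 0.908). PDF1.1, a defensin known mainly from seeds, lay between 5.89 and 6.76 on the 4 arrays. Thus 2 of the 5 named members of this list were called, against 0.787% of all probe sets, and these 2 may be a single signal. The list median was 0.22 on the log2 scale, against −0.01 over all probe sets.

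Among probe sets with a name, genes for the breakdown and methylation of JA were the other JA group with calls. The JOX genes encode 2-oxoglutarate-dependent oxygenases that hydroxylate JA to an inactive form, and all 4 had a named probe set. AT5G05600 (JOX2) had 202.8 and 205.4 in OE 0d, against 50.3 and 48.6 in WT 0d. JRG21 (JOX3, jasmonate-regulated gene 21) had 55.6 and 102.4 in OE 0d, against 17.3 and 10.4 in WT 0d. Both pairs were separate, and the arrays within a group were closest for AT5G05600. Its log2 fold change was 2.05 ± 0.12 (adjusted p = 0.0016), and it was called on leaving out any of the 4 arrays and with all 8 arrays in the fit (adjusted p = 0.0418). JRG21 rose by 2.49 ± 0.33 (adjusted p = 0.0272), and was called without OE 0d replicate 1 and not without any of the other 3 arrays (adjusted p = 0.093 to 0.128). Both WT values of JRG21 were under 32, and on raising such values to 32 its log2 fold change was 1.24. Of the 5 named members of this list 2 were called, against 0.787% of all probe sets.

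AT2G38240 (JOX4) had 22.5 and 73.8 in OE 0d, against 14.9 and 21.7 in WT 0d, so that 1 OE array was close to WT, and it was not called (log2 fold change 1.18, adjusted p = 0.291). It was called only where OE 0d replicate 1 was left out (adjusted p = 0.0418) or replicate numbers were used as a block (adjusted p = 0.0476). AT3G11180 (JOX1) lay at 6.62 or less on all 4 arrays, far under 32. JMT, the methyltransferase that makes the volatile methyl ester of JA, had 45.0 and 73.2 in OE 0d, against 19.1 and 23.2 in WT 0d, with no overlap. It missed the threshold by little (log2 fold change 1.45 ± 0.23, adjusted p = 0.0501, and 0.84 with values under 32 raised to 32). It fell on the other side without OE 0d replicate 1 (adjusted p = 0.0278), under the trended robust estimate (adjusted p = 0.0102) where probe sets under 32 in both groups were left out (adjusted p = 0.0373) and with replicate numbers as a block (adjusted p = 0.00294).

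In the main fit, synthesis and perception of JA gave no call among the few members with a name. Under the trended robust estimate, and also with replicate numbers as a block, 1 named member of the JA synthesis list was called. OPCL1, a CoA ligase of the peroxisomal steps of JA synthesis, had 183.3 and 226.5 in OE 0d, against 103.2 and 140.7 in WT 0d, without overlap (log2 fold change 0.76, adjusted p = 0.114). DGL, a plastid lipase, was under 7 on all 4 arrays. The transcription factors MYC3 and MYC4 differed by 0.26 and 0.03 on the log2 scale. THI2.1, a thionin gene that JA induces, had 43.5 and 158.5 in OE 0d, against 70.6 and 13.4 in WT 0d, so that both groups overlapped and no direction can be given (adjusted p = 0.443). The lack of calls does not show that these steps were unaltered, since few genes of the lists had a name: 2 of 20 for JA synthesis, 2 of 20 for perception and 1 of 11 for the MYC branch. The study reports LOX2, AOS and AOC1 of JA synthesis, and MYC2 and VSP1 of the JA signal, as higher in OE. It also reports a higher JA content in leaves of 2 OE lines than in WT leaves without drought. None of these genes had a named probe set here, and any calls of theirs would be among the 96 without a single name. The calls above therefore cannot set JA breakdown against JA synthesis.

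**Figure D2:**
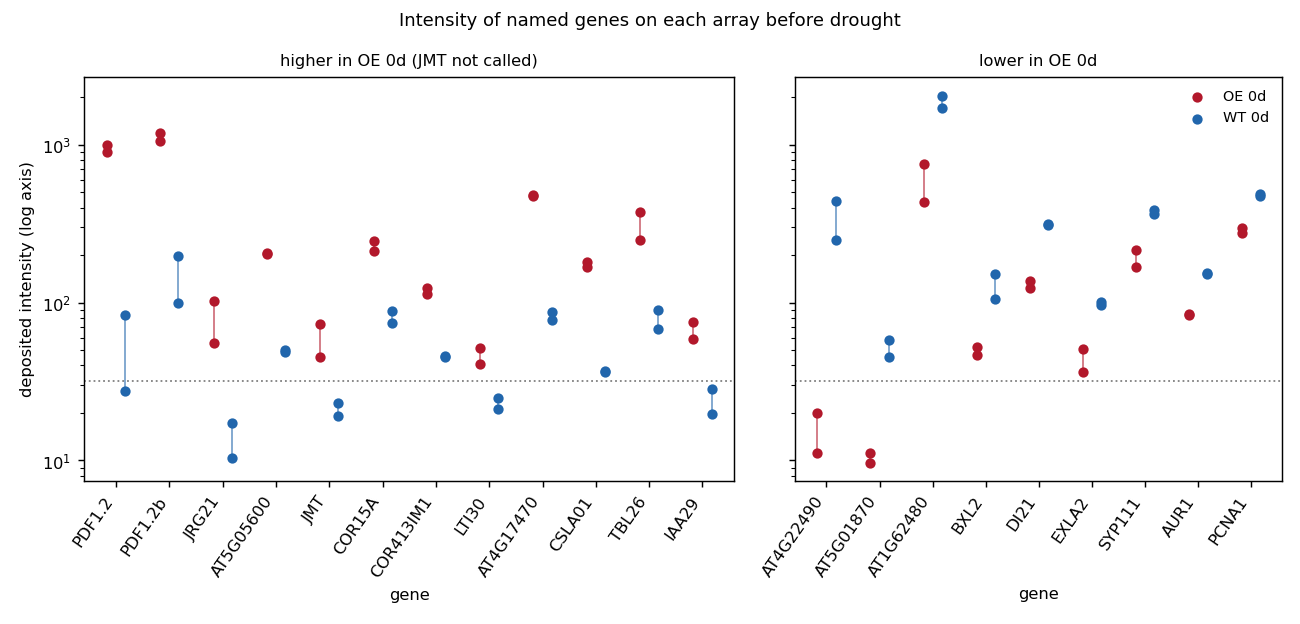
Deposited intensity (log axis) of 21 named genes on each array before drought, with OE 0d in red left of WT 0d in blue and a line joining the 2 arrays of a group. The dotted line marks 32. PDF1.2 is near 1000 on both OE arrays and under 100 on both WT arrays, whereas AT4G22490 is under 32 on both OE arrays and over 250 on both WT arrays.

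Of the cold-regulated genes, 3 were higher in OE before any drought. COR15A, whose product protects chloroplast membranes from freezing, had 244.3 and 213.4 in OE 0d, against 88.8 and 74.5 in WT 0d. COR413IM1 (COR414-TM1), a protein of the chloroplast inner envelope, had 112.9 and 123.8 in OE 0d, against 45.1 and 45.6 in WT 0d. LTI30, a dehydrin, had 41.0 and 51.3 in OE 0d, against 21.1 and 24.9 in WT 0d. In each of the 3 both OE arrays lay above both WT arrays, and of these genes only LTI30 had WT values under 32. The log2 fold changes were 1.49 ± 0.14 for COR15A (adjusted p = 0.00811), 1.38 ± 0.12 for COR413IM1 (adjusted p = 0.00702) and 1.0 ± 0.16 for LTI30 (adjusted p = 0.0478).

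These 3 of the 5 named members of the list were called, against 0.787% of all probe sets, and its median log2 fold change was 1.0. COR413IM1 got its name only from the study's table of changed genes, so that the share called is not a neutral count. COR15B, the neighbour and close relative of COR15A, had 42.2 and 37.4 in OE 0d, against 17.7 and 25.9 in WT 0d, and was not called (adjusted p = 0.0944). ZAT10, a zinc finger repressor induced by many stresses, had 39.8 and 82.8 in OE 0d, against 62.6 and 106.9 in WT 0d, with overlap. AT4G30660, listed in the study as a homologue of a low temperature and salt responsive protein and picked here after its values were seen, had 245.9 and 215.2 in OE 0d, against 101.6 and 119.2 in WT 0d (log2 fold change 1.06, adjusted p = 0.0277). On leaving out any 1 array LTI30 was not called (adjusted p = 0.0911 to 0.244), and COR15A and COR413IM1 were called without OE 0d replicate 1 and not without any of the other 3 arrays (adjusted p = 0.0547 to 0.0709). LTI30 also missed the threshold after quantile normalization (adjusted p = 0.0505) and after centring on the median (adjusted p = 0.0523). The dehydrin gene COR47, counted in the list of drought and abscisic acid outputs, lay between 321.8 and 388.1 on all 4 arrays with overlap, and LEA4-5 was under 16 on all of them.

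The study gives a table of genes that were higher in OE, chosen on these same samples, so that their direction is not independent evidence. Of its 20 genes 8 had a named probe set, and these are PDF1.2, PDF1.2b, JMT, THI2.1, COR15A, COR413IM1, LTI30 and PRX52. All 8 had a positive log2 fold change and 6 were called. PRX52, a class III peroxidase of lignin formation, was the dimmest, with 18.5 and 28.7 in OE 0d, against 7.74 and 8.07 in WT 0d (log2 fold change 1.55 ± 0.20, adjusted p = 0.0277). All of these values were under 32, so that no difference is left on raising them to 32. The study also measured some genes by qRT-PCR, among them PDF1.2, COR15A and COR413IM1 (COR414-TM1), and reports changes similar to those of its arrays.

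Other large rises with a name included AT4G17470 and, apart from it, genes of cell wall polysaccharides. AT4G17470, which has no annotation in the sources used, was the third largest named rise, with 470.6 and 479.1 in OE 0d, against 77.6 and 86.9 in WT 0d. It rose by 2.53 ± 0.12 on the log2 scale (adjusted p = 0.00111) and was called on leaving out any of the 4 arrays. CSLA01, a cellulose synthase-like gene of the family that makes mannans, had 169.4 and 181.6 in OE 0d, against 36.2 and 37.0 in WT 0d. Its replicates were close in both genotypes and it was also called in each of these 4 fits (log2 fold change 2.26 ± 0.12, adjusted p = 0.00139). TBL26, of the trichome birefringence-like family that acetylates wall polysaccharides, had 247.9 and 377.3 in OE 0d, against 68.4 and 89.9 in WT 0d (log2 fold change 1.96 ± 0.22, adjusted p = 0.0167). It was called without OE 0d replicate 1 and not without any of the other 3 arrays (adjusted p = 0.0664 to 0.159).

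AT4G16260, counted here among the chitinases and beta-1,3-glucanases that attack fungal walls, had 69.0 and 73.1 in OE 0d, against 24.1 and 17.4 in WT 0d, without overlap (log2 fold change 1.79 ± 0.17, adjusted p = 0.00811, and 1.15 with values under 32 raised to 32). That list had 1 positive and 2 negative values, with a median log2 fold change of −0.39. AT4G16260 was the only called gene among its 3 named members, against 0.787% of all probe sets. It was still called with all 8 arrays in the fit (adjusted p = 0.0479), but not without OE 0d replicate 2 (adjusted p = 0.0682). AT1G09500, listed in the study as a putative cinnamyl alcohol dehydrogenase, an enzyme type of lignin synthesis, had 59.7 and 58.1 in OE 0d, against 13.7 and 16.3 in WT 0d (log2 fold change 1.98 ± 0.13, adjusted p = 0.00359, and 0.88 with values under 32 raised to 32). AT4G24350, AT3G28220 and AT2G47880 rose by 1.75, 1.67 and 1.65 on the log2 scale. AT3G28220 was the brightest of these, with 717.1 and 864.7 in OE 0d, against 277.4 and 219.8 in WT 0d.

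The list of lipid transfer and hybrid proline-rich proteins, small secreted proteins of the wall, held strong changes in opposite directions. Of its 7 named members 2 rose and 1 fell, against 0.431% and 0.356% of all probe sets. Its median log2 fold change was −0.03. AT4G12490 had 281.7 and 412.9 in OE 0d, against 102.2 and 60.2 in WT 0d (log2 fold change 2.12 ± 0.28, adjusted p = 0.0269). AT4G12500, whose locus number is next in order, had 52.7 and 67.2 in OE 0d, against 26.6 and 16.2 in WT 0d (log2 fold change 1.52 ± 0.24, adjusted p = 0.0495). With values under 32 raised to 32 the log2 fold change of AT4G12500 was 0.90. AT4G12500 was not called on leaving out any 1 array (adjusted p = 0.0626 to 0.173), and AT4G12490 was called only without OE 0d replicate 1.

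AT4G22490, of the same list, was the largest fall on the array. Its intensity was 20.0 and 11.1 in OE 0d, against 440.2 and 251.2 in WT 0d. Both OE arrays were under 32 and both WT arrays were far above it. The log2 fold change was −4.48 ± 0.33 (adjusted p = 0.00445), and the fall was called on leaving out any of the 4 arrays and with all 8 arrays in the fit (adjusted p = 0.0234). On raising every value under 32 to 32 it was −3.38 on the log2 scale. AT5G01870 also fell, with 9.62 and 11.2 in OE 0d, against 58.1 and 45.0 in WT 0d (log2 fold change −2.30 ± 0.16, adjusted p = 0.00388), and was called in each of the 4 fits with an array left out. With values under 32 raised to 32 its log2 fold change was −0.68.

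**Figure D3:**
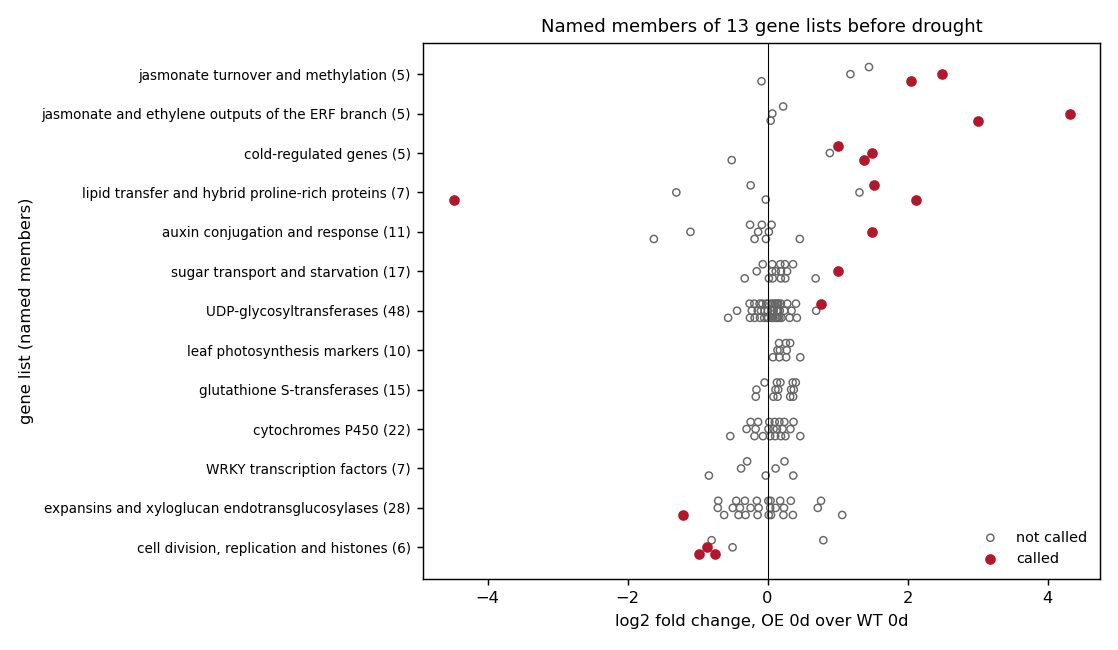
Log2 fold change of OE 0d over WT 0d (x axis) for each named member of 13 gene lists (y axis, number of named members in brackets), filled where called and open where not. The called members of the jasmonate turnover, ERF branch and cold lists lie to the right of 0, those of the cell division list lie to the left, and the photosynthesis, glutathione S-transferase and P450 lists hold no call.

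Among the falls, genes of cell division formed the one list with calls in only that direction and more than 1 of them. SYP111 (KNOLLE), a syntaxin that fuses vesicles at the cell plate, had 167.4 and 214.2 in OE 0d, against 383.6 and 365.2 in WT 0d. AUR1, a mitotic Aurora kinase, had 83.5 and 84.8 in OE 0d, against 154.3 and 151.4 in WT 0d. PCNA1, the sliding clamp of DNA replication, had 275.7 and 298.0 in OE 0d, against 477.4 and 489.8 in WT 0d. In each of the 3 both OE arrays lay below both WT arrays, and all values were above 32. The log2 fold changes were −0.98 ± 0.15 for SYP111 (adjusted p = 0.0462), −0.86 ± 0.12 for AUR1 (adjusted p = 0.0301) and −0.75 ± 0.12 for PCNA1 (adjusted p = 0.0495).

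Thus 3 of 6 named members were lower, against 0.356% of all probe sets, and the list median was −0.78. AUR2, a second Aurora kinase, had 58.9 and 77.4 in OE 0d, against 114.0 and 121.1 in WT 0d (adjusted p = 0.0789), and MCM7, of the replicative helicase, had 94.6 and 122.2 in OE 0d, against 155.9 and 148.2 in WT 0d (adjusted p = 0.174). Neither was called. HIS1-3, a linker histone that drought induces, was the one member with a positive value (log2 fold change 0.80, adjusted p = 0.0711). SYP111 and PCNA1 got their names from the study's table of changed genes and would otherwise have been unnamed, so that the share of this list that was called is not a neutral count. None of the 3 calls survived leaving out any 1 array (lowest adjusted p = 0.0884 for SYP111, 0.111 for AUR1 and 0.142 for PCNA1), and those of SYP111 and PCNA1 were lost on centring the arrays on the median (adjusted p = 0.0535 and 0.0626). Shoot meristem and stomatal lineage markers had no call, with 0 of 2 and 0 of 3 named members, against 0.787% of all probe sets. The meristem genes UFO and CLV3 were under 32 on all 4 arrays. Of the 3 stomatal lineage members 2 had a negative and 1 a positive value. SPCH had 37.8 and 33.9 in OE 0d, against 49.0 and 47.9 in WT 0d (adjusted p = 0.15). MUTE, under 32 throughout, had 13.3 and 14.7 in OE 0d, against 15.9 and 16.8 in WT 0d (adjusted p = 0.422). The share of young tissue was not tested. In whole leaves, fewer cells of a type and less RNA per cell cannot be told apart.

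Falls also included genes of the cell wall and of stress. EXLA2, an expansin-like gene, had 50.7 and 36.6 in OE 0d, against 97.2 and 101.2 in WT 0d (log2 fold change −1.20 ± 0.17, adjusted p = 0.0369). It was the only call among 28 named expansins and xyloglucan endotransglucosylases, whose values were positive for 14 and negative for 14. Over all probe sets 0.787% were called. BXL2, a beta-xylosidase of the wall, had 52.3 and 46.5 in OE 0d, against 151.6 and 105.8 in WT 0d (log2 fold change −1.36 ± 0.19, adjusted p = 0.0319). DI21, named for its induction by drought, had 124.6 and 136.2 in OE 0d, against 308.7 and 315.1 in WT 0d (log2 fold change −1.26 ± 0.12, adjusted p = 0.00811), with replicates that were close in both genotypes.

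EXLA2 was called without OE 0d replicate 1, and BXL2 without WT 0d replicate 2, and neither without any of the other 3 arrays. DI21 was not called without any 1 array, with an adjusted p of 0.053 to 0.0869. The brightest of the falls was AT1G62480, with 760.1 and 436.4 in OE 0d, against 2053 and 1700 in WT 0d. Its OE arrays were further apart than its WT arrays, and the log2 fold change was −1.70 ± 0.25 (adjusted p = 0.0438, and 0.0998 under the trended robust estimate). The largest fall among probe sets without a name was that of 253660_at, with 8.13 and 9.34 in OE 0d, against 74.2 and 74.9 in WT 0d (log2 fold change −3.10 ± 0.13, adjusted p = 0.000999, and −1.22 with values under 32 raised to 32). The largest rise among them was that of 266142_at, with 525.3 and 597.3 in OE 0d, against 65.7 and 33.9 in WT 0d (log2 fold change 3.57 ± 0.28, adjusted p = 0.00521).

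Hormone and metabolic genes outside the JA group gave single calls. IAA29, an auxin-induced repressor of auxin response, had 59.2 and 75.2 in OE 0d, against 19.8 and 28.2 in WT 0d (log2 fold change 1.50 ± 0.20, adjusted p = 0.0296). It was the only call among 11 named auxin genes, of which 4 had a positive and 7 a negative value. The median log2 fold change of that list was −0.08 and its lowest value, not called, was −1.62. SWEET4, a sugar exporter of the plasma membrane, had 45.9 and 57.5 in OE 0d, against 25.2 and 25.9 in WT 0d (log2 fold change 1.01 ± 0.14, adjusted p = 0.0377), 1 of 17 named genes of sugar transport and starvation. UGT84A3, a glucosyltransferase of phenylpropanoids, had 151.7 and 137.9 in OE 0d, against 83.1 and 86.7 in WT 0d (log2 fold change 0.77 ± 0.12, adjusted p = 0.0495). It was the one call among 48 named UDP-glycosyltransferases. For comparison with the counts of these lists, 0.787% of all probe sets were called. IAA29, SWEET4 and UGT84A3 were not called on leaving out any 1 array.

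Several stress lists held no call, which at 0.787% called over all probe sets says little about lists of this size. There was none among 22 cytochromes P450, 15 glutathione S-transferases, 7 WRKY factors, 5 antioxidant enzymes, 5 chaperones of the endoplasmic reticulum and 3 salicylic acid genes with a name. The 3 named NAC genes of Arabidopsis, NAC001, NAC014 and NAC003, differed by −0.41, −0.20 and −0.05 on the log2 scale, and none was called (lowest adjusted p = 0.172). Only 3 of 100 listed NAC genes and 5 of 20 listed antioxidant genes had a name. The study reports the NAC gene ANAC019 and the superoxide dismutase gene FSD1 as higher in OE, and neither had a named probe set here. The 10 photosynthesis genes were all a little higher in OE 0d, by 0.08 to 0.47 on the log2 scale, with a median of 0.22, and none was called (lowest adjusted p = 0.127 for LHCB4.3, a minor antenna protein). Of the markers of other tissues, PYK10, a beta-glucosidase that is abundant in roots, had 61.7 and 40.5 in OE 0d, against 138.8 and 101.4 in WT 0d (adjusted p = 0.0709), and the root hair expansin EXPA7 was under 14 on all 4 arrays. The part of other tissues in the changes was not tested.

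The lists were drawn up with earlier results of these arrays known. Over 51 lists, 243 probe sets were named members and 19 of these were called, 14 higher and 5 lower, in 11 lists. That is 7.82% of the named members, against 0.787% of all probe sets, and nothing is read from the difference because the lists were chosen in this way and 21 names came from the study's table of changed genes. Among probe sets named by the platform annotation 0.57% were called, and among those without a single name 1.05% were, so that 96 of the 179 calls cannot be assigned to a gene here. Only the UDP-glycosyltransferase list had a named probe set for at least 80% of its genes, and 10 lists had no named member.

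At 5 d without water the genes called before drought were looked at again in OE 5d vs WT 5d, which uses 4 arrays that the comparison at 0 d does not. Of the 98 probe sets that were higher in OE 0d, 67 were also higher in OE 5d than in WT 5d and 31 were lower. That is 68.4%, against 49.4% of all probe sets that were higher in OE 5d. Their median log2 fold change at 5 d was 0.19, and 17 were over 2-fold higher and 1 over 2-fold lower in OE 5d. The 81 probe sets that were lower in OE 0d did not stay lower: 69 of them (85.2%) were higher in OE 5d than in WT 5d, 20 of them over 2-fold, and 12 (14.8%) were lower, against 50.6% of all probe sets. The median log2 fold change of the 81 was 0.51 at 5 d, against −1.02 at 0 d.

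No probe set passed the adjusted threshold in OE 5d vs WT 5d by limma, where 1810 had an unadjusted p under 0.05 and the smallest adjusted p was 0.145. The OE 5d pair was the least alike of the series, with an SD of the log2 difference of 0.505 and 1294 probe sets over 2-fold apart, against 0.292 and 143 for WT 5d. In 68 of the 81 falls (84.0%) OE 5d replicate 1 was the higher of its pair, against 52.6% of all probe sets, and the share of the 81 that were higher in OE 5d was 64.2% without that array and 88.9% without OE 5d replicate 2. For the 98 rises the share was 75.5% without OE 5d replicate 1 and 60.2% without replicate 2.

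**Figure D4:**
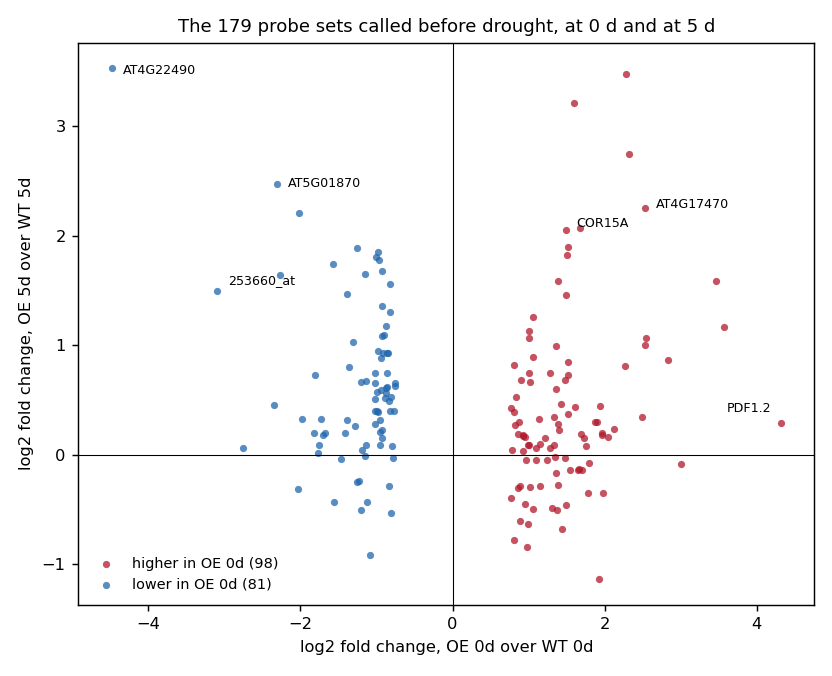
Log2 fold change of OE 5d over WT 5d (y axis) against that of OE 0d over WT 0d (x axis) for the 179 probe sets called before drought, higher in red and lower in blue. Points above the horizontal line were higher in OE 5d: 67 of the 98 red points and 69 of the 81 blue points.

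Single genes followed several courses. The named JA genes called before drought were no longer apart at 5 d. PDF1.2 had 1347 and 289.0 in OE 5d, against 466.1 and 556.4 in WT 5d, and AT5G05600 had 144.3 and 258.8 in OE 5d, against 171.9 and 173.1 in WT 5d. In both genes the WT 5d arrays lay within the range of the OE 5d pair. THI2.1, a JA gene that was not called before drought, had 312.1 and 56.8 in OE 5d, against 9.54 and 9.84 in WT 5d. It was not called at 5 d either (adjusted p = 0.605 by limma). COR15A and COR413IM1 were higher on both OE arrays, as were 19.6% of all probe sets at 5 d, with 873.7 and 473.6 for COR15A in OE 5d, against 214.2 and 112.5 in WT 5d, and with 517.1 and 425.7 for COR413IM1 in OE 5d, against 226.7 and 107.5 in WT 5d. The log2 fold changes at 5 d were 2.05 and 1.59, with unadjusted p of 0.00443 and 0.00785 from limma and adjusted p of 0.605 for both.

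AT4G17470 had 136.2 and 53.7 in OE 5d, against 21.1 and 15.2 in WT 5d, which were under 32. AT3G28220 had 191.0 and 220.1 in OE 5d, against 66.8 and 35.6 in WT 5d. Both genes were still higher on both OE arrays, as were 19.6% of all probe sets at 5 d. Neither passed the adjusted threshold at 5 d (adjusted p = 0.605 by limma for both). Among the falls, AT4G22490 had 277.8 and 122.9 in OE 5d, against 17.7 and 14.5 in WT 5d, the reverse of its order before drought. AT5G01870 had 64.2 and 23.5 in OE 5d, against 6.41 and 7.59 in WT 5d, and all of these but 64.2 were under 32. For AT5G01870 the change of the genotype effect from 0 d to 5 d was not called (adjusted p = 0.0779 for the interaction in a limma fit of all 8 arrays). For AT4G22490 the difference between its log2 fold changes at 5 d and at 0 d was 8.01 (adjusted p = 0.0132 for the interaction in a limma fit of all 8 arrays). The values of OE 0d and WT 5d were under 32, and with such values raised to 32 the difference was 5.91.

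The 3 cell division genes that fell lay between 28.4 and 107.7 in WT 5d. SYP111 had 189.6 and 81.0 in OE 5d, against 40.7 and 29.0 in WT 5d, and was higher on both OE arrays. AUR1 had 73.4 and 38.9 in OE 5d, against 35.6 and 28.4 in WT 5d, also without overlap. At 5 d 19.6% of all probe sets were likewise higher on both OE arrays. PCNA1 had 214.9 and 103.2 in OE 5d, against 107.7 and 86.1 in WT 5d, and its pairs overlapped. DI21 had 519.0 and 112.2 in OE 5d, against 76.7 and 55.1 in WT 5d. None of these passed the adjusted threshold at 5 d, and in all 4 genes OE 5d replicate 1 was the higher of its pair.

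**Figure D5:**
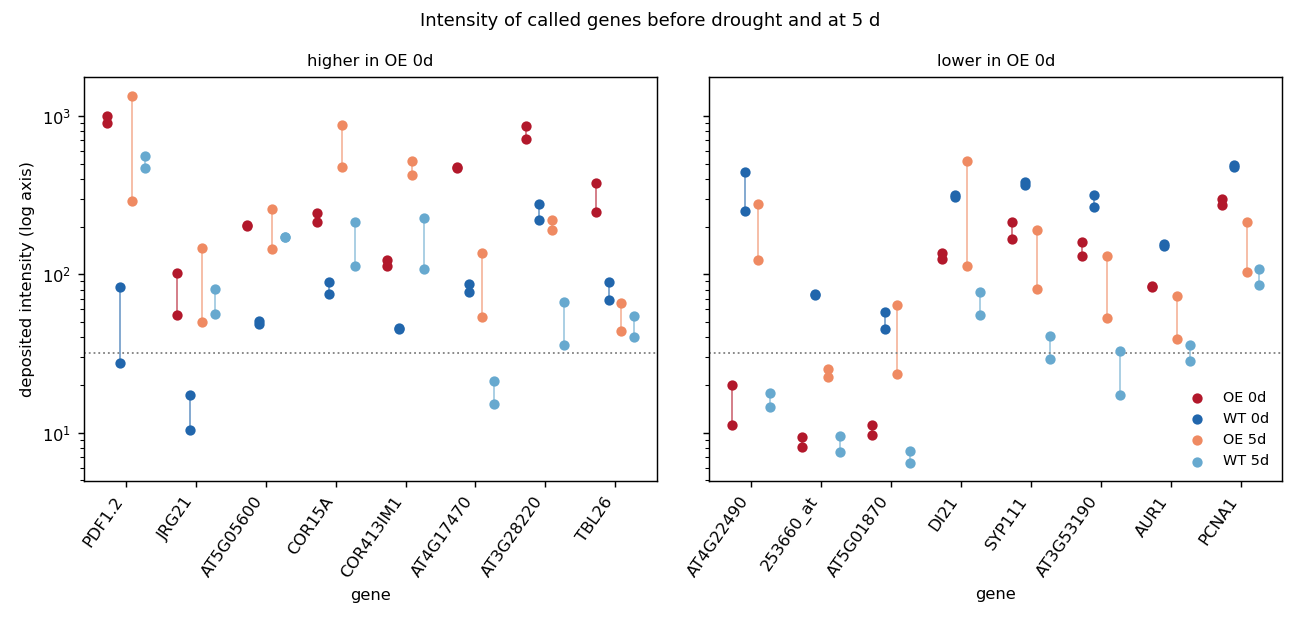
Deposited intensity (log axis) of 16 called genes on each of the 8 arrays, in the order OE 0d, WT 0d, OE 5d and WT 5d, with a line joining the 2 arrays of a group and a dotted line at 32. AT4G22490 lies under 32 in OE 0d and WT 5d and over 100 in WT 0d and OE 5d, whereas 253660_at is over 32 only in WT 0d.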

How the data were processed

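The authors amplified and labelled leaf RNA, hybridized it to ATH1 arrays and deposited 1 normalized, linear intensity for every probe set of an array. How the probes were summarized and normalized, and with which software, is not stated in the sources read here. The intensities of 22746 probe sets, without the 64 controls of the array, were converted to log2. OE 0d and WT 0d were compared with lmFit and eBayes of limma (version 3.58.1, R 4.3.3), with 2 residual degrees of freedom and Benjamini-Hochberg adjustment, and the fit was tested on simulated data. A log2 fold change is a difference of mean log2 intensities, and its SE is the moderated one. OE 5d vs WT 5d was fitted in the same way to its own 4 arrays. Tables and figures used Python 3.11.15, pandas 2.3.3 and matplotlib 3.10.9.

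Names came from the platform annotation (13512 probe sets with 1 symbol, 503 with several), and 97 more came from identifiers in the study's table of changed genes. The text names the 14 largest rises and falls that had a name and a mean of at least 32 in the higher group, the genes of the study's table of genes higher in OE, the JOX genes, up to 4 members of each list, and the largest changes without a name. From part of these only a count or a range is given. The members, lists and tests were chosen with earlier results of these data known. Columns of the study's own fold changes, promoter motifs and sequences were not used here. The number of arrays limits the precision.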

Additional observations from a re-analysis of the deposited data

Results flagged for a closer look

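The effect of genotype differed between 5 d and 0 d, by the interaction test of limma over all 8 arrays, for 2 of the probe sets chosen by the rule for named genes, AT4G22490 and 253660_at, which has no gene name. For AT4G22490 the log2 fold change of OE over WT was 3.53 at 5 d and −4.48 at 0 d, a difference of 8.01 (adjusted p = 0.0132). For 253660_at it was 1.50 at 5 d and −3.10 at 0 d, a difference of 4.59 (adjusted p = 0.000947), with 25.3 and 22.4 in OE 5d, against 9.49 and 7.52 in WT 5d. All the values of 253660_at but those of WT 0d were under 32. With values under 32 raised to 32, a choice made after seeing the data, the log2 fold change of 253660_at was 0 at 5 d and −1.22 at 0 d, so that its reversal rests on values close to background, and that of AT4G22490 was 2.53 at 5 d and −3.38 at 0 d, a difference of 5.91. Over all probe sets 7 passed this test, 5 of them among the 179 called before drought. Groups of 2 arrays are too small to look for outlying arrays.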

How the results depend on the processing

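Against 98 higher and 81 lower, the counts were 12 and 6 with all 8 arrays in 1 fit, 200 and 195 among probe sets with a mean of at least 32 in either group, 536 and 581 with a trended robust eBayes, 0 and 0 without moderation, 45 and 36 with 1 probe set per named gene, and 4 and 8 with values under 32 set to 32, where 10202 probe sets had no spread left. The last 4 and 8 shared 0 and 2 with the main calls. Leaving out each array gave 23 to 67 higher and 9 to 29 lower. With the replicate number as a block they were 291 and 348, which include all 179. The deviations of same-numbered arrays correlated at 0.126, and with 2 pairs the numbers are not shown to pair the samples. Quantile normalization, centring on the median and the study's threshold (fold over 2, unadjusted p under 0.05) kept both counts within 1.5 times. Of the 39 called genes and probe sets followed, 4 were called with all 8 arrays, 38 after quantile normalization, 36 after centring and 36 with a trended robust eBayes. None changed sign, which on leaving out an array was fixed in advance because their arrays did not overlap between the genotypes. The shares at 5 d stayed on the same side of the share of all probe sets under each array left out there, and were 70.7% of 92 and 86.1% of 36 where probe sets under 32 in both 5 d groups were left out, a choice made after seeing the data.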

Other observations

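The shares of named calls and of named probe sets differed most on chromosomes 4 and 1, which are given for that reason. On chromosome 3 they were closer, with 20.4% of the named probe sets, 15.6% of the named rises and 18.9% of the named falls. Chromosome 4 held 14.5% of the named probe sets, 28.9% of the named rises (13 of them) and 16.2% of the named falls. Chromosome 1 held 26.4% of the named probe sets, 17.8% of the named rises and 37.8% of the named falls. These shares are a description without a test, and 96 of the 179 calls have no single name and so no chromosome here.

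Brightness also differed between the rises and falls. The OE 0d mean was over 1000 for 8 of the 98 rises, and the WT 0d mean was over 1000 for 1 of the 81 falls, AT1G62480.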
